A study of Mus musculus with 8 samples.

Results

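Genes that coat lipid droplets or make and break down their triglyceride, 10 in all, were followed in mouse hearts lacking Gpihbp1. They were chosen by gene symbol: the droplet coat genes Plin2 (gene identifier 11520), Plin3 (gene 66905), Plin4 (gene 57435) and Plin5 (gene 66968), the lipase gene Pnpla2 (gene 66853) and its coactivator Abhd5 (gene 67469), the lipase inhibitors G0s2 (gene 14373) and Hilpda (gene 69573), and the acyltransferases Dgat1 (gene 13350) and Dgat2 (gene 67800). Plin3, Plin4 and Plin5 lie on chromosome 17, where Plin4 directly precedes Plin5 among the listed genes, Pnpla2 and Dgat2 on chromosome 7, and the others on chromosomes 1, 4, 6, 9 and 15. All 10 were among the 17190 genes listed, and all 10 were among the 12826 that passed the filter on low counts. The hearts came from 4 Gpihbp1-/- males, called knockout 1, 2, 3 and 4, and from 4 wild-type males, called wild-type 2, 4, 5 and 6 after the numbers in their titles. Gpihbp1 encodes the capillary protein that carries lipoprotein lipase to the vessel lumen, and the study asked what its absence does to the heart. All mice ate standard rodent chow. Strain, age, the construction of the Gpihbp1 allele, litter and collection day are not given in the sources used here, and p-values therefore measure the spread between these 8 hearts only.

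A lipid droplet is a core of triglyceride under a single phospholipid layer, and perilipins bind that layer. Heart muscle esterifies part of the fatty acid it takes up, holds it briefly in droplets, and releases it again through adipose triglyceride lipase, the product of Pnpla2. Release is held back by G0s2, by Hilpda and by Plin5 on the droplet, and is promoted by Abhd5. Mice without Pnpla2 fill their heart muscle with triglyceride. The last step of triglyceride synthesis is carried out by either Dgat1 or Dgat2, which are unrelated in sequence.

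Library totals ran from 9065553 to 13492957 estimated counts and did not separate the genotypes (exact two-sided permutation p = 0.886, the smallest possible being 0.0286). Gpihbp1 had 0, 0, 1 and 0 counts in knockout 1, 2, 3 and 4, against 1108, 1951, 833 and 1783 in wild-type 2, 4, 5 and 6. Knockout 2 and wild-type 2 stood apart from the other hearts, at 76.9 and 82.0 on the first principal component of log2 CPM (54.0% of variance) with the other 6 between -40.0 and -17.4. The summed level of 7 fibroblast markers was 9070 and 7640 CPM in these 2 hearts, against 852 to 1060 CPM in the other 6. Collagens Col1a1 and Col3a1 and the matrix protein Postn carried that sum, whereas Dcn was lowest of the knockouts in knockout 2, at 536 CPM against 551 to 619 CPM. The 10 macrophage markers summed to 2750 and 4180 CPM in the same hearts and to between 405 and 721 CPM elsewhere. The 8 cardiomyocyte markers summed to 38000 and 40300 CPM there and to between 59200 and 117000 CPM elsewhere. Another heart, wild-type 6, lay at 78.2 on the second component (24.2% of variance), and its Myl4, a myosin light chain of atria, reached 974 CPM where no other heart exceeded 2.45 CPM. The atrial markers Myl7 and Sln were likewise high in wild-type 6 alone, at 427 and 356 CPM, and both were at 0 in knockout 2 and wild-type 2. The natriuretic peptide gene Nppa, the other atrial marker, had 4470 CPM in knockout 2 and 3130 and 3260 CPM in wild-type 2 and 6, against 157 to 298 CPM in the other 5 hearts. Endothelial markers summed to 654 and 545 CPM in knockout 2 and wild-type 2 and to between 982 and 2260 CPM elsewhere. Neutrophil and skeletal muscle markers summed to at most 94.8 and 8.60 CPM, and no gene of any marker list passed the test between genotypes. In bulk tissue, fewer cells of a type and less RNA per cell cannot be told apart.

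Promoter sequences are shown for Plin2 and Hilpda, which were highest of the knockouts in knockout 2, and for Plin5 and Pnpla2, which were lowest in knockout 2 and wild-type 2. Each runs from 250 bases before to 30 bases after the gene's start in RefSeq's annotation of assembly GRCm38.p6. The positions below are not positions in GRCm39, the build that the submitters' processing notes give. Capitals mark the hypoxia-inducible factor cores ACGTG and GCGTG and the nuclear receptor core AGGTCA, read on both strands.
Plin2 (chr4:86670030-86670309, minus strand): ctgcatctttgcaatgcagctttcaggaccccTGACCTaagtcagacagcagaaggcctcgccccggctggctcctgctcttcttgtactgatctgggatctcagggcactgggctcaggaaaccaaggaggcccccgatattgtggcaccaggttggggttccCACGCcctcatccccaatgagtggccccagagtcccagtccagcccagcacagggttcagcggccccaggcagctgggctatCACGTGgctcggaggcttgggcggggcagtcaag
Hilpda (chr6:29272238-29272517, plus strand): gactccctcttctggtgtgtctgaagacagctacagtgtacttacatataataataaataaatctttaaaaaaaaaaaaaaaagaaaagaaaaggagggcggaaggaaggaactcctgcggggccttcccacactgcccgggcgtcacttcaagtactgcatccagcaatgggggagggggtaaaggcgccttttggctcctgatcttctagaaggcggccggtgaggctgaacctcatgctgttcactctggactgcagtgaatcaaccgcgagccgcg
Plin5 (chr17:56117519-56117798, minus strand): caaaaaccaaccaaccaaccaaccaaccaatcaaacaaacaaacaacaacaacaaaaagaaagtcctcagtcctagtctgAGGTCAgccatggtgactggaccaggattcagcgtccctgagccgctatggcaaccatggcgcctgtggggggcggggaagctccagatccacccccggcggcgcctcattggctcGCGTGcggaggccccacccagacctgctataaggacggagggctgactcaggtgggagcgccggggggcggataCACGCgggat
Pnpla2 (chr7:141454938-141455217, plus strand): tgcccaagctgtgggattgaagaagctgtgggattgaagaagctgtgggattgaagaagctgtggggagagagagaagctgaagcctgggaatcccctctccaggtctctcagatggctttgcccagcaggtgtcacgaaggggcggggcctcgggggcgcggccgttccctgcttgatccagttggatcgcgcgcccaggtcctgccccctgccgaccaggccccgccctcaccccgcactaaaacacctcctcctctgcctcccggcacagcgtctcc

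Promoter entries matched 8 of the 10 genes. In these 280 bases Plin2 held 2 ACGTG matches, which are the overlapping strands of one CACGTG, together with 1 GCGTG and 1 AGGTCA. Plin5 held 2 GCGTG and 1 AGGTCA. The Pnpla2 and Hilpda windows held none of the 3 motifs, and the table's full 300 bases for Hilpda held 1 GCGTG. Over 27025 promoters cut in the same way, 41.8% had either hypoxia core and 15.2% had AGGTCA, against 4 and 3 of the 8 matched genes. A match is a string of letters and not a measured binding site.

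None of the 10 genes passed the test between the genotypes. In edgeR's quasi-likelihood test 0 of 10 had an adjusted p under 0.05 (0.99998 for each), where 0.0312% of all tested genes passed. That makes 0 higher in knockout hearts, against 0.0234% of all genes, and 0 lower, against 0.0078%. At an unadjusted p under 0.05 there were also 0 of 10, against 0.904% of all genes, and DESeq2 likewise called 0. No gene of the 10 had knockout and wild-type levels that did not overlap, against 0.632% of all genes. The log2 fold change, knockout over wild type, was positive for 5 and negative for 5, with a median of -0.025, beside -0.019 over all tested genes. The 95% interval of every gene included 0. The widest, that of Dgat2, ran from a 0.487-fold to a 2.38-fold level, and the narrowest, that of Dgat1, from 0.506-fold to 1.10-fold, so a change anywhere within these bounds lay within the error of these 8 hearts.

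**Figure D1:**
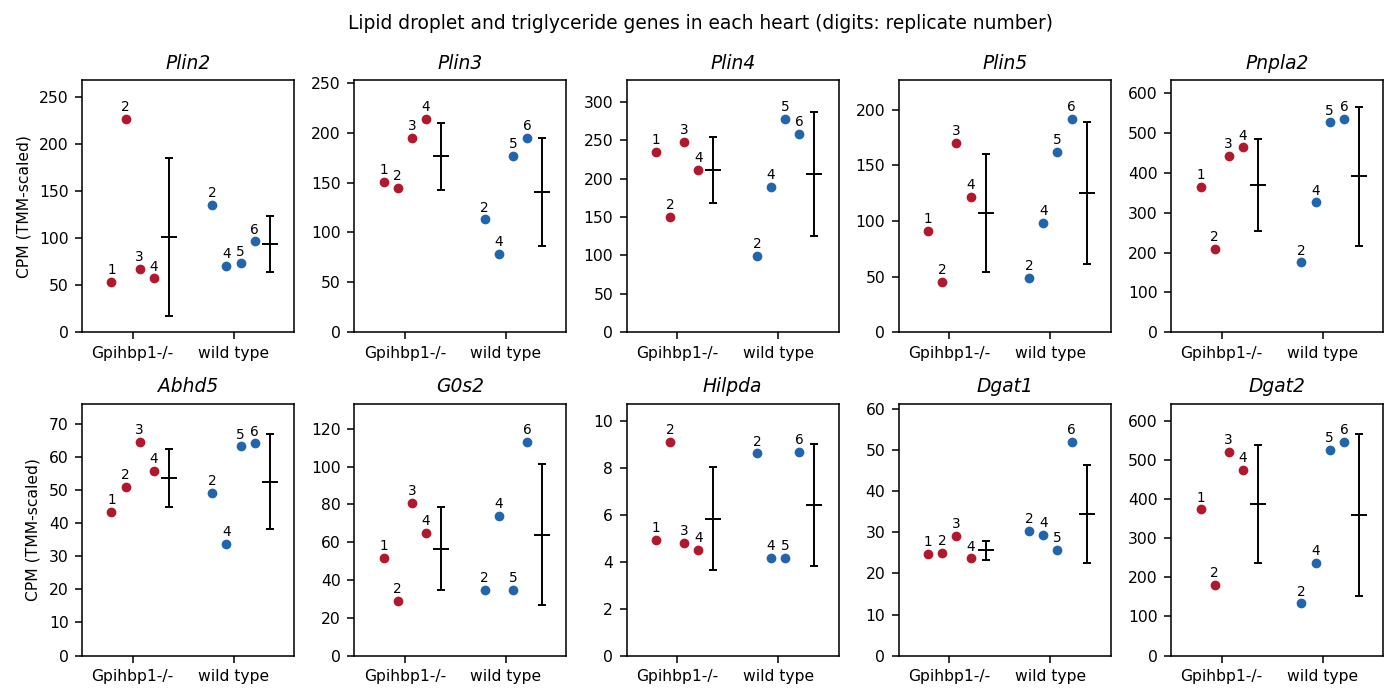
Level of each of the 10 genes in each heart, as counts scaled to library size by TMM (CPM), with Gpihbp1-/- hearts in red at the left and wild-type hearts in blue at the right of every panel. Digits are replicate numbers, and black bars give the mean ± SD (n = 4). The genotypes overlap in every panel, and heart 2 of each genotype lies at the top for Plin2 and at the bottom for Plin4, Plin5, Pnpla2, G0s2 and Dgat2.

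The 4 coat genes overlapped between genotypes and spread widely within them. Plin2, the perilipin that most cell types put on their droplets and that is widely used as a sign of stored lipid, stood at 53.2, 227, 67.5 and 57.1 CPM in knockout 1, 2, 3 and 4. It stood at 135, 70.2, 73.2 and 96.6 CPM in wild-type 2, 4, 5 and 6. Knockout 2 was the highest heart of all, wild-type 2 the next, and the other 6 lay between 53.2 and 96.6 CPM. Knockout 2 was 3.83-fold above the mean of the other knockouts and wild-type 2 was 1.69-fold above the mean of the other wild types. The mean was 101 ± 84.0 CPM in knockout hearts and 93.9 ± 30.1 CPM in wild-type hearts (SD, n = 4 each). The log2 fold change was 0.11 (SE 0.49, 95% interval -0.995 to 1.21, edgeR unadjusted p = 0.830). The value turned to -0.66 without knockout 2 (edgeR unadjusted p = 0.0506, adjusted p = 0.99919), to -0.0039 without wild-type 4 and to -0.43 without both hearts numbered 2. The 10 macrophage markers were each highest of their genotype in knockout 2 and wild-type 2. So were 6 and 7 of the 7 fibroblast markers, against 39.6% and 28.1% of all tested genes. The part of these markers in the Plin2 level was not tested.

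Plin3, an exchangeable perilipin that shuttles between cytosol and new droplets, had 151, 145, 195 and 214 CPM in knockout 1, 2, 3 and 4, against 113, 78.4, 177 and 195 CPM in wild-type 2, 4, 5 and 6. Knockout 4 was the highest heart, wild-type 2 and 4 lay below every knockout heart, and wild-type 5 and 6 lay among the knockouts. Its log2 fold change was 0.33 (SE 0.33, 95% interval -0.40 to 1.06, edgeR unadjusted p = 0.339), the largest positive value of the 10. It stayed positive in all 19 alternative fits, with its lowest value, 0.14, without wild-type 4.

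Plin4, an exchangeable perilipin prominent in fat and striated muscle, had 235, 150, 248 and 211 CPM in knockout 1, 2, 3 and 4. Wild-type 2, 4, 5 and 6 had 99.7, 189, 278 and 258 CPM. The lowest heart of each genotype was the one numbered 2. The log2 fold change was 0.033 (SE 0.35, 95% interval -0.76 to 0.82), and it was negative without knockout 1 (-0.021), knockout 3 (-0.053) or wild-type 2 (-0.19). Plin4 lies over the opposite-strand gene Hdgfl2, at 12.1 to 33.1 TPM. The libraries were strand-specific but the use of strand in counting is not stated, so shared reads cannot be told apart.

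Plin5, the perilipin of oxidative tissues that tethers droplets to mitochondria and binds both Pnpla2 and Abhd5, had 90.9, 45.0, 170 and 122 CPM in knockout 1, 2, 3 and 4. Wild-type 2, 4, 5 and 6 had 48.9, 98.5, 162 and 192 CPM. Hearts numbered 2 were again the lowest of their genotype, at 0.352 and 0.325 times the mean of the others. The log2 fold change was -0.22 (SE 0.49, 95% interval -1.32 to 0.87, edgeR unadjusted p = 0.657), and 0.032 without knockout 2 or 0.031 without wild-type 6.

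The lipase and its coactivator had similar means in both genotypes. Pnpla2 had 365, 209, 442 and 464 CPM in knockout 1, 2, 3 and 4, against 175, 326, 527 and 536 CPM in wild-type 2, 4, 5 and 6. Knockout 2 and wild-type 2 were the only hearts below 300 CPM. The mean was 370 ± 116 CPM in knockout hearts and 391 ± 174 CPM in wild-type hearts, a log2 fold change of -0.079 (SE 0.42, 95% interval -1.03 to 0.87, edgeR unadjusted p = 0.856). The sign turned without knockout 2 (0.12), wild-type 5 (0.101) or wild-type 6 (0.087).

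Abhd5, which activates the lipase once Plin5 or Plin1 releases it, had 43.3, 50.9, 64.5 and 55.7 CPM in knockout 1, 2, 3 and 4. Wild-type 2, 4, 5 and 6 had 49.1, 33.7, 63.2 and 64.1 CPM. On CPM it varied least of the 10 genes over the 8 hearts, with a coefficient of variation of 20.8% beside 60.0% for Plin2. On TPM Dgat1 varied less, at 23.2 ± 2.40 TPM beside 22.0 ± 5.94 TPM for Abhd5 (SD, n = 8). Hearts numbered 2 were neither the highest nor the lowest of their genotype on CPM. The log2 fold change was 0.029 (SE 0.25, 95% interval -0.54 to 0.59), and negative without knockout 3 (-0.071), wild-type 2 (-0.00014) or wild-type 4 (-0.13). The antisense gene A730085K08Rik overlaps Abhd5 and was not analysed here.

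The inhibitors of the lipase did not move alike among the hearts. G0s2, a small protein that blocks Pnpla2, had 51.7, 28.9, 80.7 and 65.0 CPM in knockout 1, 2, 3 and 4, against 34.6, 73.8, 34.8 and 113 CPM in wild-type 2, 4, 5 and 6. Knockout 2 was the lowest heart and wild-type 6 the highest, and the genotypes overlapped. Its log2 fold change was -0.18 (SE 0.45, 95% interval -1.18 to 0.82, edgeR unadjusted p = 0.701), and 0.041 without knockout 2 or 0.22 without wild-type 6. The opposite-strand gene Lamb3 overlaps G0s2 and stood at 0.78 to 4.81 TPM, with the same limit as for Plin4.

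Hilpda, a hypoxia-inducible inhibitor of Pnpla2, had 56, 139, 49 and 48 counts in knockout 1, 2, 3 and 4, or 4.95, 9.12, 4.80 and 4.52 CPM. It had 124, 44, 48 and 62 counts in wild-type 2, 4, 5 and 6, or 8.64, 4.18, 4.19 and 8.71 CPM. Knockout 2, wild-type 2 and wild-type 6 lay above 8 CPM and the other 5 hearts below 5 CPM. On TPM wild-type 6 was instead the lowest of the 8 hearts, at 6.26 TPM, while knockout 2 and wild-type 2 stayed the highest, at 18.3 and 13.7 TPM. The log2 fold change was -0.13 (SE 0.38, 95% interval -0.99 to 0.73, edgeR unadjusted p = 0.738), and 0.054 without wild-type 2 or 0.035 without wild-type 6.

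The acyltransferases differed in level and in spread, and neither passed the test between genotypes. Dgat1, the enzyme of the endoplasmic reticulum that re-esterifies incoming fatty acid, had 24.7, 25.1, 29.1 and 23.7 CPM in knockout 1, 2, 3 and 4, against 30.4, 29.4, 25.8 and 52.0 CPM in wild-type 2, 4, 5 and 6. Its mean was 25.6 ± 2.36 CPM in knockout hearts and 34.4 ± 11.9 CPM in wild-type hearts, a log2 fold change of -0.42 (SE 0.25, 95% interval -0.98 to 0.14). Its edgeR unadjusted p of 0.124 was the lowest of the 10. Wild-type 6 was far above the rest, and without it the log2 fold change was -0.17. On the TPM scale that heart did not stand out, at 21.7 TPM beside 22.1 to 27.3 TPM in the other wild types. Dgat1 lies on chromosome 15, as does Gpihbp1, and is the listed gene 40 places after it in the gene order of GRCm38.p6.

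Dgat2, the enzyme that also sits on growing droplets, had 373, 181, 520 and 475 CPM in knockout 1, 2, 3 and 4, against 133, 237, 525 and 545 CPM in wild-type 2, 4, 5 and 6. Wild-type 2 and knockout 2 were the lowest hearts. The mean was 387 ± 151 CPM in knockout hearts and 360 ± 207 CPM in wild-type hearts, a log2 fold change of 0.11 (SE 0.51, 95% interval -1.04 to 1.25, edgeR unadjusted p = 0.839). It was negative without knockout 3 (-0.068), knockout 4 (-0.0071), wild-type 2 (-0.17) or wild-type 4 (-0.042).

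**Figure D2:**
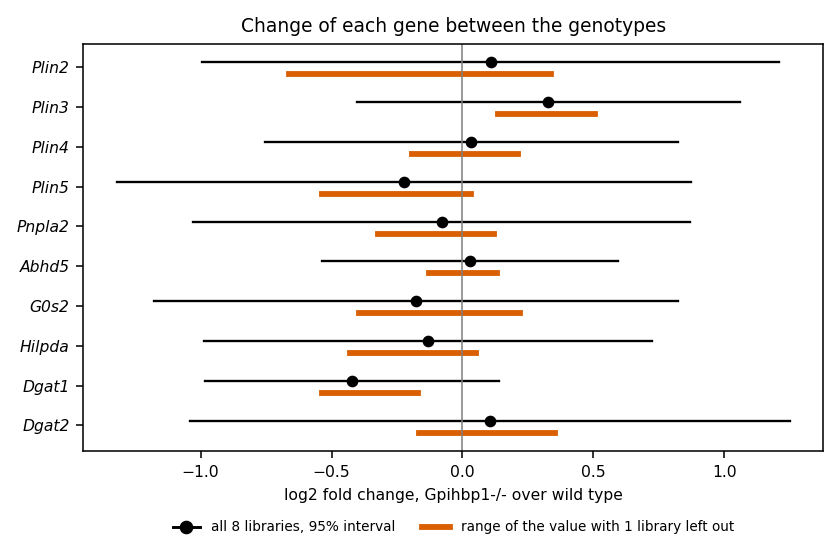
Log2 fold change of each gene, Gpihbp1-/- over wild type, from edgeR's quasi-likelihood fit. Black points and lines give the value and 95% interval with all 8 libraries, and orange bars give the range of the value over the 8 fits that each left out 1 library. Every black line crosses 0, and the orange bars of Plin3 and Dgat1 alone stay on one side of it.

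The choice of scale moved these values as a group. The values above use CPM scaled by TMM, which gave wild-type 6 a factor of 0.678 and the other libraries 0.964 to 1.16. On the authors' TPM the same heart was low instead: Plin2 had 33.2 TPM in wild-type 6, the lowest of the 8 hearts, and Pnpla2 had 123 TPM. With limma on log2(TPM + 1) the median log2 fold change of all genes was 0.25 instead of -0.019, and that of the 10 genes was 0.28. On that scale 9 of the 10 were positive, Dgat1 being the exception at -0.104, and Plin5, Pnpla2, G0s2 and Hilpda changed sign. Plin3 had 0.72 (limma unadjusted p = 0.0423, adjusted p = 0.92251), and 0 of the 10 passed.

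Within each genotype the genes fell into contrasting patterns. Plin4, Plin5, Pnpla2, G0s2 and Dgat2 were each lowest of the knockouts in knockout 2 and lowest of the wild types in wild-type 2, a pattern that 20.5% of all tested genes shared in CPM and 8.61% in TPM. Plin2 was highest in both hearts, as were 25.1% of genes in CPM. Hilpda joined it in TPM, where 28.3% of genes did so. Plin3, Abhd5 and Dgat1 fitted neither pattern. These shares are descriptions of the 8 libraries. The summed fibroblast and macrophage markers were high and the summed cardiomyocyte markers low in the same 2 hearts. Of 8 cardiomyocyte markers, 7 were lowest in knockout 2 and 5 in wild-type 2, against 36.1% and 24.8% of all tested genes. The part of the markers in these patterns was not tested.

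**Figure D3:**
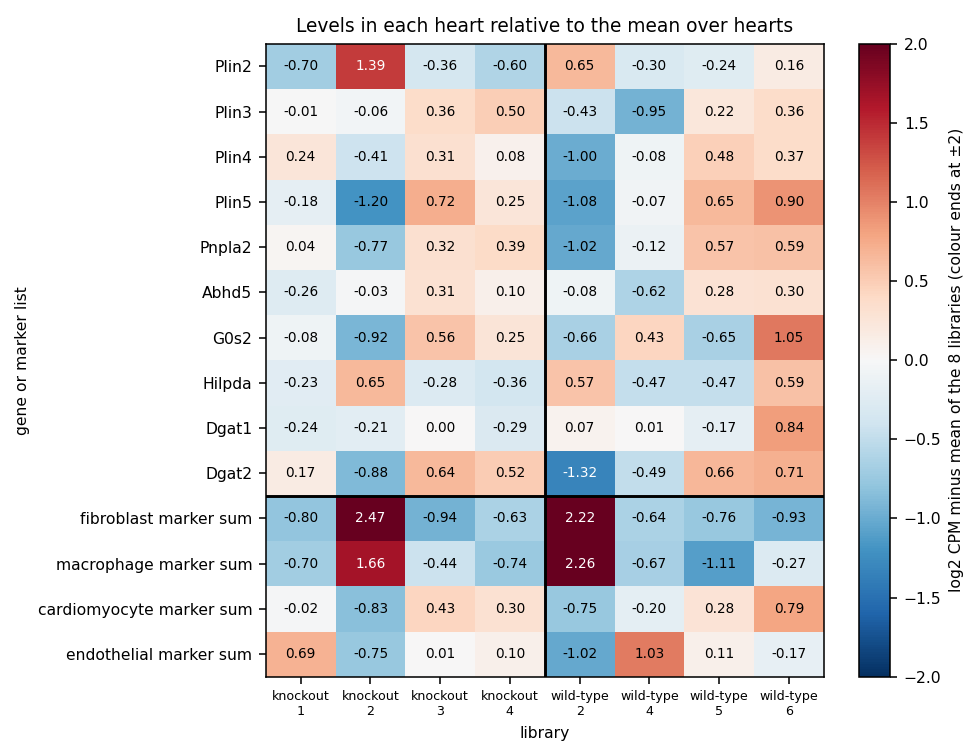
Log2 CPM of the 10 genes and of the summed markers of 4 cell types in each heart, minus the mean over the 8 hearts, with Gpihbp1-/- hearts left of the vertical line and wild-type hearts right of it. In knockout 2 and wild-type 2, Plin2 stood at 1.39 and 0.65 and the fibroblast marker sum at 2.47 and 2.22, while Plin5 stood at -1.20 and -1.08.

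Ratios between partners within one library do not depend on how libraries are scaled. Plin5 over Plin2, in TPM, was 1.69, 0.193, 2.44 and 2.03 in knockout 1, 2, 3 and 4, and 0.363, 1.57, 2.10 and 2.24 in wild-type 2, 4, 5 and 6. The muscle perilipin thus exceeded the general one in 6 hearts and was below it in the 2 hearts numbered 2. Hilpda over Pnpla2 was 0.141 and 0.160 in knockout 2 and wild-type 2, against 0.0313 to 0.0439 in the other knockouts and 0.0259 to 0.0509 in the other wild types.

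Abhd5 over Pnpla2 was 0.200 in knockout 2 and 0.238 in wild-type 2, and 0.0849 to 0.118 in the other 6 hearts. G0s2 over Pnpla2 behaved differently. It was 0.567, 0.555, 0.735 and 0.556 in knockout 1, 2, 3 and 4, and 0.789, 0.901, 0.268 and 0.810 in wild-type 2, 4, 5 and 6, so that hearts numbered 2 did not stand out. Dgat2 over Dgat1 ran from 5.46 to 15.9 in knockout hearts and from 3.07 to 17.3 in wild-type hearts, lowest in both cases in the heart numbered 2. The ranges of the genotypes overlapped for all 5 ratios.

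**Figure D4:**
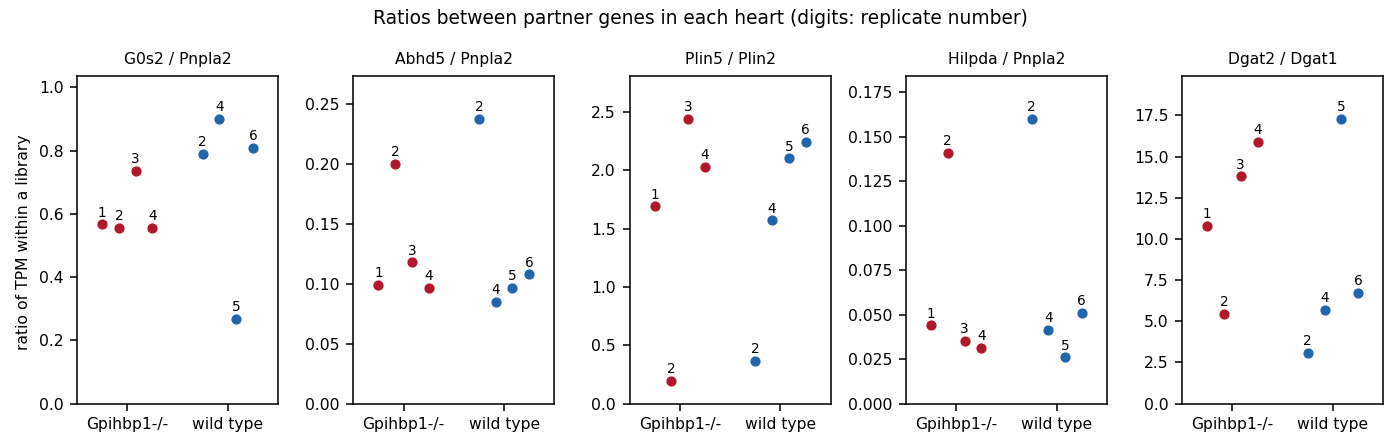
Ratio of TPM between partner genes within each library, on axes that start at 0, with Gpihbp1-/- hearts in red at the left and wild-type hearts in blue at the right. Digits are replicate numbers. Hearts numbered 2 have the lowest Plin5 / Plin2 ratio of their genotype and the highest Hilpda / Pnpla2 ratio.

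Levels between genes were compared per transcript length. Mean TPM over the 8 hearts was highest for Dgat2, at 220 ± 107, then Pnpla2 at 189 ± 77.1, G0s2 at 113 ± 38.5, Plin3 at 99.5 ± 36.1 and Plin5 at 83.4 ± 35.1 (SD, n = 8). Plin2 followed at 75.9 ± 58.5, Plin4 at 42.0 ± 14.9, Dgat1 at 23.2 ± 2.40, Abhd5 at 22.0 ± 5.94 and Hilpda at 9.82 ± 4.07. Pnpla2 exceeded G0s2 in 8 of 8 hearts and Abhd5 exceeded Hilpda in 8 of 8. Neighbours were less clearly ordered elsewhere: Dgat2 exceeded Pnpla2 in 6 of 8 hearts, G0s2 exceeded Plin3 in 4 and Dgat1 exceeded Abhd5 in 4. Plin2 was the most abundant of the 10 in knockout 2 and wild-type 2, at 212 and 100.2 TPM, and in no other heart, while Hilpda was the least abundant in all 8.

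Most markers of fat tissue were nearly absent. Adipoq and Plin1, which define fat cells, reached at most 0.562 and 0.422 CPM in any heart, both in wild-type 6, and were listed at 0 in 6 and 4 of the 8 hearts. Of 13 adipocyte markers 3 passed the count filter: Fabp4, also a gene of capillary endothelium, Cidea and Thrsp. Cidea ran from 25.1 to 89.4 CPM and Thrsp from 11.6 to 60.9 CPM over the 8 hearts. The summed level of all 13 was 478 to 882 CPM in knockout hearts and 403 to 1380 CPM in wild-type hearts, mostly Fabp4.

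Other genes of droplet assembly did not pass the test either. Of 16 listed, 12 were tested, and 0 passed the threshold in either direction. The log2 fold change was positive for 5 and negative for 7, with a median of -0.109. Fitm1, which helps droplets bud from the endoplasmic reticulum of muscle, had -0.77 (SE 0.60), with 486 CPM in wild-type 6 against 155 CPM or less in the other hearts. Its relative Fitm2 had 0.0038, the droplet protein Aup1 -0.205 and the fusion protein Cidea -0.78 (SE 0.35, 95% interval -1.57 to 0.0043). In knockout 2, 5 of the 12 were highest and 2 lowest of the knockouts, and in wild-type 2, 1 was highest and 2 lowest of the wild types. The shares over all tested genes were 39.6% highest and 36.1% lowest in knockout 2, and 28.1% highest and 24.8% lowest in wild-type 2. Hsd17b11, a droplet-resident dehydrogenase named after its value was seen, had -0.501 (edgeR unadjusted p = 0.0423, adjusted p = 0.99998).

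Other lipolysis genes numbered 11 tested of 12, with 0 past the threshold in either direction and a median of -0.00069. Mgll, which cleaves the last fatty acid from glycerol, had -0.18 (SE 0.46). The carboxylesterase Ces1d had -0.34 (SE 0.75), the phospholipase Pnpla8 0.24 (SE 0.40) and Tfeb, a regulator of lysosomal genes, -0.22 (SE 0.27). Of the 11, 7 were lowest of the knockouts in knockout 2, as were 36.1% of all tested genes, and 7 lowest of the wild types in wild-type 2, as were 24.8%.

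Genes of the earlier steps of glycerolipid synthesis gave 0 of 20 tested past the threshold, with 7 positive, 13 negative and a median of -0.076. Acsl1, the main enzyme that activates fatty acids in heart muscle, had 0.16 (SE 0.61). The acylglycerophosphate acyltransferases Agpat1, Agpat2 and Agpat3 had -0.25, -0.19 and -0.33, each with an interval that included 0. Of the 20, 10 were highest and 5 lowest of the knockouts in knockout 2, and 6 highest and 4 lowest of the wild types in wild-type 2. Over all tested genes, 39.6% were highest in knockout 2 and 28.1% in wild-type 2, and 36.1% and 24.8% were lowest there.

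Hypoxia response genes, set beside Hilpda, gave 0 of 17 past the threshold and a median of 0.106. Ldha, Vegfa, Egln1 and Bnip3 had -0.28, -0.048, 0.17 and 0.18, with standard errors from 0.30 to 0.48. In knockout 2, 6 of the 17 were highest and 9 lowest of the knockouts, and in wild-type 2, 4 were highest and 2 lowest of the wild types. The shares over all tested genes were 39.6% highest and 36.1% lowest in knockout 2, and 28.1% highest and 24.8% lowest in wild-type 2. Ddit4, named after its value was seen, had 0.73 (edgeR unadjusted p = 0.0414, adjusted p = 0.99998). Heart genes known as targets of PPAR receptors, outside the 10, also gave 0 of 17, with 6 positive, 11 negative and a median of -0.22. The fatty acid carriers Fabp3 and Cd36 had -1.04 (SE 0.60) and 0.0052 (SE 0.41). Fabp3 stood at 14300 CPM in wild-type 6, against 4290 CPM or less in the other hearts. The beta-oxidation enzymes Acadvl and Hadhb had -0.31 and 0.053. Of these 17 genes, 15 were lowest of the knockouts in knockout 2 and 16 lowest of the wild types in wild-type 2, against 36.1% and 24.8% of all tested genes. Acot1 and Pdk4, named after their values were seen, had -2.02 and -1.10 (edgeR unadjusted p = 0.00975 and 0.0329, adjusted p = 0.99998 for each).

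The tested genes whose centred log2 CPM profiles over the 8 libraries lay closest to those of single genes of the 10 were found by the root mean square difference. For Plin2 it was Mboat1, at 0.097 log2 units beside 0.66 for the spread of Plin2 itself. For Pnpla2 it was Myocd, a coactivator of muscle genes, at 0.030 beside 0.57. For Dgat2 it was Slc2a4, the insulin-responsive glucose transporter, at 0.097 beside 0.74, and for G0s2 it was Pgam2, a muscle glycolytic enzyme, at 0.21 beside 0.64. The closest gene was Glt28d2 for Plin4, Btbd11 for Plin5, B4gat1 for Abhd5, Glmp for Hilpda and Spsb3 for Dgat1, at 0.068 to 0.117. Among the 10 themselves, Plin4 and Pnpla2 were closest, at 0.198. These are descriptions over 8 libraries and rest in part on the 2 hearts that stood apart.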

How the data were processed

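Poly(A) RNA of heart tissue was read as strand-specific paired ends on a DNBSEQ instrument, per the labels' protocols, 1 paragraph of which names rat although every sample is labelled mouse. The tools HISAT and Bowtie2 and the build GRCm39 appear in the submitters' processing notes without versions or roles, and no source used here names the program that counted. Per the file headers, the authors deposited estimated counts, TPM and FPKM per library in 1 table, in which 8 empty per-sample columns were not used. Between 4.32% and 5.89% of a library's estimated counts were not whole (tolerance 1e-06), and all were rounded.

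Genes were kept by filterByExpr (minimum count 10, minimum total 15) and scaled by TMM. The fit, in R 4.3.3, was that of edgeR 4.0.16: the robust quasi-likelihood F-test, no covariates, all 8 libraries, Benjamini-Hochberg adjustment over 12826 genes and a threshold of 0.05. Standard errors were back-calculated from F. The fit was tested on simulated counts. TPM served for levels, ratios and a limma 3.58.1 alternative, FPKM for the order of levels, and DESeq2 1.42.0 as another alternative. The biological coefficient of variation was 43.7%. No pair of libraries agreed within sampling noise (chi-square per degree of freedom at least 7.46).

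Named genes were the 10 studied, Gpihbp1, cell type markers, the 4 genes of highest mean TPM in each of 5 pathway lists and the genes closest in profile, some of which are not reported here. The 10 genes and the lists were chosen with earlier results of these data known.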

Additional observations from a re-analysis of the deposited data

Results flagged for a closer look

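Of 30 groups of 4 hearts examined, 20 of gene levels and 10 of ratios, 5 held a heart far from the other 3. For 1 group taken alone, chance gives about 1 in 20. The groups are not independent, since ratios reuse the same genes and the same hearts recur, so that rate tests no excess here. Knockout 2 was also the highest knockout for 39.6% of all tested genes in CPM. The gap to the nearest heart took 0.918 of the whole range for Plin2 in knockout 2, at 227 CPM against 53.2 to 67.5 CPM in the other knockouts. It took 0.906 for Hilpda in knockout 2, at 9.12 CPM against 4.52 to 4.95 CPM. Hilpda over Pnpla2 was 0.141 in knockout 2 against 0.0313 to 0.0439 in the other knockouts, a gap of 0.886 of the range. Abhd5 over Pnpla2 was 0.238 in wild-type 2 against 0.0849 to 0.108 in the other wild types, a gap of 0.847. G0s2 over Pnpla2 was 0.735 in knockout 3 against 0.555 to 0.567 in the other knockouts, a gap of 0.933.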

How the results depend on the processing

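Of 190 values of the 10 genes under 19 alternatives, 150 kept their direction and side of the threshold, 40 changed sign and 0 passed; the lowest adjusted p was 0.22547. With 1 library left out, log2 fold changes ran from -0.66 to 0.34 for Plin2, 0.14 to 0.51 for Plin3, -0.19 to 0.21 for Plin4, -0.54 to 0.032 for Plin5, -0.32 to 0.12 for Pnpla2, -0.13 to 0.13 for Abhd5, -0.396 to 0.22 for G0s2, -0.43 to 0.054 for Hilpda, -0.54 to -0.17 for Dgat1 and -0.17 to 0.35 for Dgat2. Without both hearts numbered 2, chosen after seeing the data, Plin2 had -0.43 and Plin4 -0.060. Without wild-type 6 as well they had -0.27 and -0.012, G0s2 0.28 and Hilpda 0.18. On library totals Pnpla2 had 0.068 and Hilpda 0.044. On log2(TPM + 1), Plin5, Pnpla2, G0s2 and Hilpda had 0.0074, 0.31, 0.25 and 0.21, and on log2(TPM + 0.1) 0.0081, 0.32, 0.25 and 0.23. The cause was not tested.

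Over all genes 4 passed; 1 did under the strict filter, 8 in DESeq2, and 2 to 3 with 1 library left out (2 without wild-type 4 or wild-type 5). In the fit with the replicate number as a block, 168 genes passed, with 1 PPAR target gene and 0 of the 10; Plin5, Pnpla2 and Hilpda had 0.099, 0.38 and 0.094 there and Plin3 0.905 (edgeR unadjusted p = 0.00974, adjusted p = 0.22547). Only numbers 2 and 4 occur in both genotypes, so in that fit the genotype values rest on the 2 knockout and 2 wild-type hearts so numbered. The deviations of the hearts numbered 2 and of those numbered 4 were correlated at 0.915 and 0.107 across genes. The labels tie the numbers to no litter or day, and 2 pairs do not settle whether they pair the hearts. By CPM instead of TPM, 4 of the 10 genes kept their rank of level. Hilpda, at 44 to 139 counts, was the least deeply counted of the 10.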
